A study of Mus musculus with 6 samples.

Results

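The genes of the Fc receptors and Trem receptors of the mouse, with the adaptors that carry their signals, were followed in macrophage-like cells exposed to endotoxin. All probes were taken whose gene symbol in the platform's probe annotation was Fcgr1, Fcgr2b, Fcgr3, Fcgr4, Fcer1g, Trem1, Trem2 or Tyrobp. Of these 8 genes 7 had probes, 11 in all of the 16281 in the value table, and each of the 11 was measured on all 6 arrays. Fcgr4 had no probe and was not analysed here. Trem2 had 3 probes, Fcgr2b and Tyrobp had 2 each, and the other 4 genes had 1 each.

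The cells were RAW 264.7, an established macrophage line from a virus-induced mouse tumour, written RAW 264.4 in some labels. Treated cells had received lipopolysaccharide (LPS, the endotoxin of Gram-negative bacteria) at 100 ng/ml together with LPS-binding protein (LBP, a serum protein that passes LPS to its receptor) at 100 pM. Untreated cells were cultured for the same 4 h, and no group had LPS or LBP alone. Total RNA of both was hybridised in different dyes on each of 6 arrays, in sets numbered 1 to 3, with treated RNA in Cy5 on 3 arrays and in Cy3 on the other 3. The labels do not say that sets came from separate cultures. The p-values rest on the spread between these sets, drawn by the test towards that of all features, and this spread may be technical.

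Fc receptors bind the constant part of antibodies and let macrophages take up or attack whatever an antibody has marked. Most of the activating receptors, among them those of Fcgr1, Fcgr3 and Fcgr4, signal through the γ chain encoded by Fcer1g, which carries an immunoreceptor tyrosine-based activation motif (ITAM). Fcgr2b encodes the inhibitory receptor, whose own inhibitory motif (ITIM) recruits the lipid phosphatase encoded by Inpp5d. Trem1 and Trem2 are receptors of the immunoglobulin superfamily that signal through the ITAM adaptor DAP12, encoded by Tyrobp. Trem1 is known to amplify inflammatory responses, and Trem2 is known as a lipid-sensing receptor of tissue macrophages, osteoclasts and microglia.

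The stretches of 250 bases just before the annotated starts of Fcgr1, Fcgr2b, Fcgr3, Trem1 and Trem2 are shown because these genes changed in different directions. They are the RefSeq reference sequence of GRCm38.p6, 5′ to 3′ on the gene's own strand, and not sequence of these cells. Promoters were found for 7 of the 8 members. Capitals mark matches to motifs searched on both strands: GAAANNGAA (ISRE), GGANNTTCC (NF-κB), GAGGAA (PU.1) and TGANTCA (AP-1).
Fcgr1 (chr3:96293970-96294219, minus strand): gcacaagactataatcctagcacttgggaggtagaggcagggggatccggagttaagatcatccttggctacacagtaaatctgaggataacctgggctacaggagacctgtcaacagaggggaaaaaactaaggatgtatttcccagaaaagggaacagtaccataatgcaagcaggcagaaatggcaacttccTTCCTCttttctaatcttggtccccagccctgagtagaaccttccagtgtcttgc
Fcgr2b (chr1:170976072-170976321, minus strand): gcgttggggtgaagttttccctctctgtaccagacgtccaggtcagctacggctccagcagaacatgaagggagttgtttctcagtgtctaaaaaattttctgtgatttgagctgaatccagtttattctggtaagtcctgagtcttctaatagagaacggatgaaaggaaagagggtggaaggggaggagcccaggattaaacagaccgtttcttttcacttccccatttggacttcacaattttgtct
Fcgr3 (chr1:171059404-171059653, minus strand): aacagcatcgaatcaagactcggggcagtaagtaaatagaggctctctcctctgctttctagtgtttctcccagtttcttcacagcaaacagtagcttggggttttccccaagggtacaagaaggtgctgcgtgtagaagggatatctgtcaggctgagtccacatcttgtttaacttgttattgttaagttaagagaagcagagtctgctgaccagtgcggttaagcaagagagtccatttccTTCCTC
Trem1 (chr17:48232489-48232738, plus strand): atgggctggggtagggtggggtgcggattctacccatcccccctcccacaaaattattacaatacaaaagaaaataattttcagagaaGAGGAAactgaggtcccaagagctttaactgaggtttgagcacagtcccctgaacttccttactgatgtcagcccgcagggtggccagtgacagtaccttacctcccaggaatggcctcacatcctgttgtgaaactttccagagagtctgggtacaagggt
Trem2 (chr17:48346151-48346400, plus strand): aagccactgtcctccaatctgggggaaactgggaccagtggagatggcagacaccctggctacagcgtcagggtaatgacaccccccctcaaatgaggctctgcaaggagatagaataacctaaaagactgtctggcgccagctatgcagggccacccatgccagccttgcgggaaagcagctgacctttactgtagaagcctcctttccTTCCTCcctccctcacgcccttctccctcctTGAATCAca

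The Fcgr1 window held a PU.1 match, TTCCTC, starting 55 bases before the start. In the Fcgr3 window the PU.1 letters lay 6 bases before the start, and in that of Trem2 they lay 40 bases before it, with an AP-1 match, TGAATCA, 9 bases before. The Trem1 window held the PU.1 letters on its own strand, GAGGAA, 162 bases before the start. No searched motif was in the Fcgr2b or Fcer1g window, while that of the unmeasured Fcgr4 held ISRE letters, GAAAAGGAA, 73 bases before the start and PU.1 letters 22 bases before it. Fcgr3 has a second annotated start, whose window overlaps the one shown and holds the same match. Among 32851 promoter windows of this length, ISRE letters were in 7.13%, NF-κB in 3.59%, PU.1 in 23.3% and AP-1 in 6.75%. These matches describe letters and were not tested as binding sites.

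Every value below is a log2 ratio with treated RNA over untreated RNA, in which 1 is a doubling. Since the labels name Cy5 as test channel, ratios were taken to divide Cy5 by Cy3, and arrays with treated RNA in Cy3 were turned in sign. This direction is the likely one, and the opposite convention would turn every sign. Each set gave 1 value, the mean of its arrays in both orientations, and means ± SD are over n = 3 sets. Across features, deviations of the arrays of a set ran in opposite directions in sets 1 and 2 (r = -0.48 and -0.51), so that they partly cancel in the set value and the SD over sets can be smaller than the spread over arrays. Where the call of a named gene is lost when the 6 arrays are taken separately, this is stated. Genes measured in only 2 sets were not part of that check. A gene was called where limma's Benjamini-Hochberg adjusted p, over all 11364 features, was below 0.05.

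Of the 7 measured members, 4 rose (Fcgr1, Fcgr2b, Trem1 and Fcer1g), 2 fell (Fcgr3 and Trem2) and Tyrobp was not called. Of all features 29.0% were called, 14.0% higher and 15.0% lower. The 4 members that rose were above 0 on all 6 arrays, as were 12.4% of features, and the 2 that fell were below 0 on all 6, as were 13.3%. The median change of the members was 0.31, against 0.00079 over all features. With 7 genes these counts describe the family and do not set it apart. Activating receptors were found on both sides, Fcgr1 among those that rose and Fcgr3 among those that fell, and so were the Trem receptors.

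**Figure D1:**
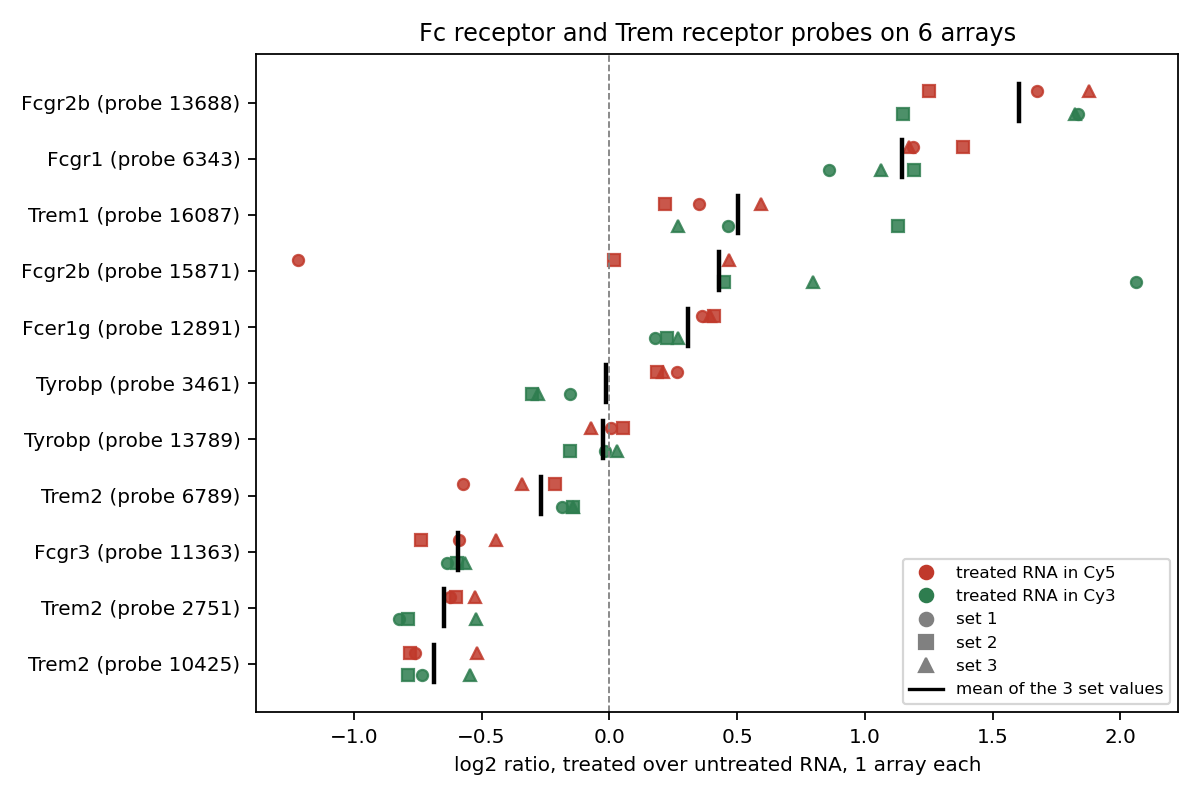
Log2 ratio of treated over untreated RNA (x axis) of each member probe (y axis), 1 point per array, coloured by the dye of the treated RNA and shaped by set, with a bar at the mean of the 3 set values. The probe of Fcgr1 and probe 13688 of Fcgr2b lie right of 0 on all 6 arrays, those of Fcgr3 and Trem2 left of it, and probe 15871 of Fcgr2b spans -1.22 to 2.06.

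Fcgr1, the high-affinity IgG receptor CD64, rose 2.21-fold. With treated RNA in Cy5 its log2 ratios were 1.19, 1.39 and 1.17 in sets 1 to 3, and with treated RNA in Cy3 they were 0.86, 1.19 and 1.06. All 6 arrays were clearly above 0, with set 2 highest in both orientations. The mean was 1.14 ± 0.13 (limma adjusted p = 8.74e-06), which put Fcgr1, like Fcgr2b averaged over its probes, among the 1.87% of features that were called and rose at least 2-fold. Another 0.158% were called and at least 2-fold lower, and under the opposite sign convention these shares change places.

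Fcgr2b, the inhibitory IgG receptor, had probes that differed in size and in steadiness. Probe 13688 gave 1.67, 1.25 and 1.88 with treated RNA in Cy5 and 1.84, 1.15 and 1.82 with it in Cy3. Its mean was 1.60 ± 0.35, a 3.04-fold rise (limma adjusted p = 3.76e-05 in the fit of single probes, in which 28.7% of probes were called). The orientations were alike in each set, and set 2 was the lowest in both.

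Probe 15871 of Fcgr2b gave -1.22, 0.019 and 0.47 with treated RNA in Cy5 and 2.06, 0.45 and 0.80 with it in Cy3. Its arrays therefore ran from below to well above 0, and the widest gap lay within set 1. Averaging each set hides that gap: the set values were 0.42, 0.23 and 0.63, with a mean of 0.43 ± 0.20 that was called (limma adjusted p = 0.00369). Taken as 6 separate arrays the same mean was not called (limma adjusted p = 0.543). The gene's average over both probes, 1.02 ± 0.27 (limma adjusted p = 1.60e-04), rests largely on probe 13688, and on the arrays with treated RNA in Cy5 alone it was at 0.68 and not called (limma adjusted p = 0.0717). The extracellular parts of the Fcgr2b and Fcgr3 transcripts are known to be closely similar, and probe sequences were not used here, so which transcripts each probe binds is uncertain.

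Fcgr3, an activating IgG receptor of low affinity (CD16), fell 1.51-fold. Its values were -0.59, -0.74 and -0.44 with treated RNA in Cy5 and -0.64, -0.59 and -0.57 with it in Cy3. Every array was below 0 and both orientations had nearly the same mean, at -0.59 and -0.60. The change was -0.59 ± 0.083 (limma adjusted p = 9.25e-05).

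In RefSeq's order of protein-coding genes Fcgr4 lies between Fcgr2b and Fcgr3, which thus neighbour each other apart from the unmeasured Fcgr4 and changed in opposite directions. Within arrays the ratio of probe 13688 of Fcgr2b to Fcgr3 was higher in treated than in untreated RNA by 2.20 ± 0.28 on the log2 scale (4.58-fold), from 1.74 to 2.47 over the 6 arrays. For the less steady probe 15871 this difference was 1.02 ± 0.12 over sets and -0.63 to 2.70 over arrays. Fcgr1 moved against Fcgr3 by 1.74 ± 0.19, a 3.34-fold shift, in the same direction on each array. Such differences show unequal change and carry no separate test.

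Fcer1g, the shared γ chain of the activating Fc receptors, rose by a small and even amount. Its values were 0.36, 0.41 and 0.39 with treated RNA in Cy5 and 0.18, 0.23 and 0.27 with it in Cy3. All were above 0, and every Cy5 value exceeded every Cy3 value. The mean was 0.31 ± 0.031, or 1.24-fold (limma adjusted p = 0.00134). The change of the chain was thus smaller than that of Fcgr1 and opposite in sign to that of Fcgr3, the receptors it serves.

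Trem1, the amplifier of inflammatory signals, rose 1.42-fold with a wide spread. With treated RNA in Cy5 the arrays gave 0.35, 0.22 and 0.59, and with it in Cy3 they gave 0.46, 1.13 and 0.27. All 6 were above 0, but the array of set 2 with treated RNA in Cy3 stood apart from the next highest, at 0.59. The mean was 0.50 ± 0.15 (limma adjusted p = 6.98e-04). It was not called on the Cy5 arrays alone (0.39, limma adjusted p = 0.0521), on the Cy3 arrays alone (0.62, limma adjusted p = 0.0624) or with set and dye as fixed terms over 6 arrays (limma adjusted p = 0.0805).

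Trem2 fell on each of its 3 probes. Probe 10425 gave -0.76, -0.78 and -0.52 with treated RNA in Cy5 and -0.73, -0.79 and -0.55 with it in Cy3. Probe 2751 gave -0.63, -0.60 and -0.53, and -0.82, -0.79 and -0.52. In both probes set 3 had the smallest fall in either orientation. Probe 6789 fell less, with -0.57, -0.21 and -0.34 in the Cy5 orientation and -0.19, -0.14 and -0.14 in the other.

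In the fit of single probes the means were -0.69 ± 0.14 for probe 10425, -0.65 ± 0.11 for probe 2751 and -0.27 ± 0.10 for probe 6789 (limma adjusted p = 1.06e-04, 8.81e-05 and 0.00752). Every array value of every Trem2 probe was below 0. Averaged over probes, Trem2 changed by -0.53 ± 0.093 (limma adjusted p = 1.94e-04). Trem1 and Trem2, which share their adaptor, therefore moved apart. Set against probe 10425, the Trem2 probe that fell most, the gap was 1.19 ± 0.25 and at least 0.82 on each array. Against probe 6789, which fell least, the gap is smaller.

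Tyrobp, which encodes that adaptor, DAP12, was not called. Probe 13789 gave 0.0084, 0.055 and -0.071 with treated RNA in Cy5 and -0.017, -0.15 and 0.029 with it in Cy3, scattered around 0. Probe 3461 followed the dye: 0.26, 0.19 and 0.21 with treated RNA in Cy5, and -0.15, -0.30 and -0.28 with it in Cy3. The averaged gene was at -0.019 ± 0.041 (limma adjusted p = 0.796). Fcer1g and Tyrobp, the ITAM adaptors of the Fc and Trem receptors, differed by 0.33 ± 0.048 (probe 13789 of Tyrobp), with Fcer1g higher on all 6 arrays.

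**Figure D2:**
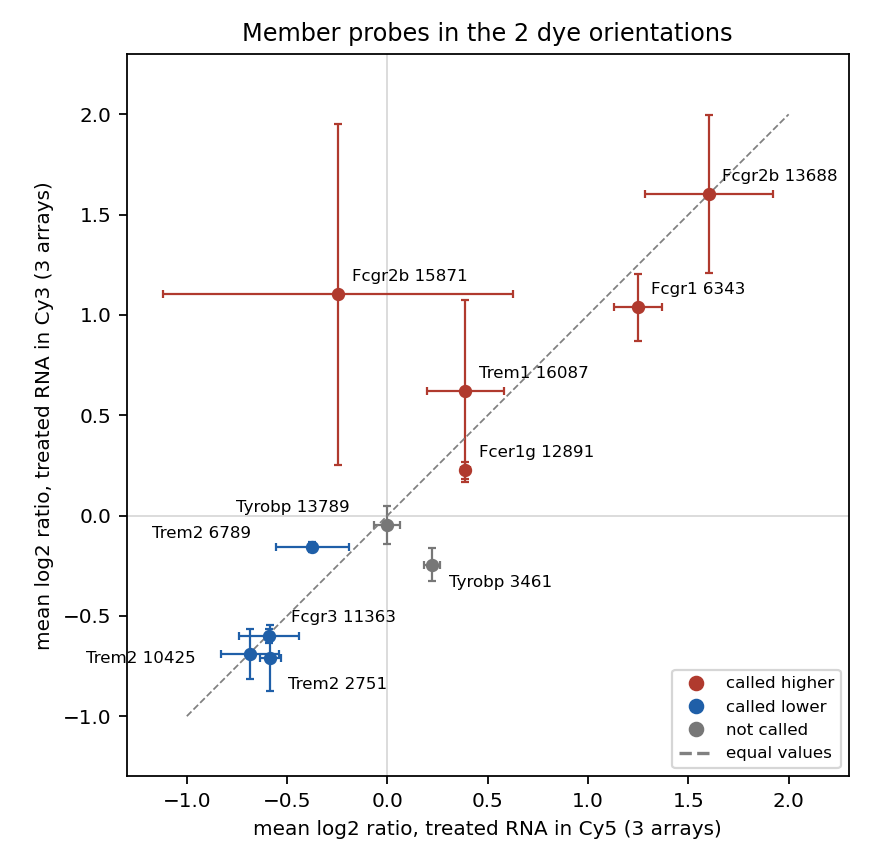
Mean log2 ratio of each member probe over the 3 arrays with treated RNA in Cy5 (x axis) and the 3 with treated RNA in Cy3 (y axis). Error bars are SD over those 3 arrays, the dashed line marks equal values, and colour gives the call in the fit of single probes. Fcgr2b probe 13688 lies on the line at 1.60 in both orientations, whereas its probe 15871 lies at -0.24 and 1.10, far from the line.

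Ordered by mean change, with the probes of a gene averaged, the members ran from Fcgr1 through Fcgr2b, Trem1, Fcer1g, Tyrobp and Trem2 to Fcgr3. The set values of Fcgr1 and Fcgr2b overlapped, as did those of Trem2 and Fcgr3, so these neighbours could not be ordered. Between Fcgr2b and Trem1 the gap was thin, with the lowest set of the former at 0.72 and the highest of the latter at 0.67. This gap depends on the Fcgr2b probe. The lowest set of probe 13688 was at 1.20, whereas the set values of probe 15871, 0.42, 0.23 and 0.63, overlapped those of Trem1. Trem1 and Fcer1g were also close, at 0.41 and 0.33. Single arrays of both pairs overlapped. The lowest array of Fcgr2b, averaged over its probes, was at 0.23 and the highest of Trem1 at 1.13. The lowest array of Trem1 was at 0.22 and the highest of Fcer1g at 0.41. The set values of Tyrobp lay apart from both of its neighbours. No array of Tyrobp, averaged over its probes, reached the lowest of Fcer1g (0.18) or fell to the highest of Trem2 (-0.40).

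The test for a dye effect, which compares the orientations, called 0 of 11364 features by limma's adjusted p, although 23.1% had an unadjusted p below 0.05. For the members its adjusted p ran from 0.180 (Tyrobp) to 0.948 (Fcgr3).

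Adjacent genes of the Trem cluster were measured too. Trem3, which RefSeq places next to Trem1, rose by 0.24 ± 0.080 (limma adjusted p = 0.00844). Treml1, a Trem-like receptor known from platelets and placed next to Trem2, fell to -0.28 ± 0.15 (limma adjusted p = 0.0114). Hcst, which encodes the adaptor DAP10 and lies beside Tyrobp, was at 0.12 ± 0.045 and was not called (limma adjusted p = 0.0772).

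Over the 6 array values, the named genes nearest to each called member were found by Euclidean distance in log2 units. For Fcgr1 these were the phosphatase gene Dusp2 (distance 0.246) and the glutaredoxin gene Glrx (0.25), and for Fcgr3 they were Inpp5d (0.124) and the co-repressor gene Sin3a (0.156). Fignl1, a DNA repair gene (0.0794), and Mybl2, a cell cycle transcription factor gene (0.103), lay nearest to Trem2. Znrd1, of RNA polymerase I (0.103), and B4galt3, a galactosyltransferase gene (0.115), lay nearest to Fcer1g. Trem1 had no close match, with Hunk at 0.451 and Naip2 at 0.478, and Fcgr2b, averaged over its probes, had none either, with Tlr1 and Ccl9 both at 1.22. These are likenesses over 6 arrays and not tests.

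The signalling pathway of the receptors was described from 7 lists, of which 73 genes were measured on all arrays. Of these 22 rose, 15 fell and 36 were not called, which is 50.7% called against 29.0% of all features, with a median of 0.053. The lists were chosen with earlier results of these data known, so the share is a description. Taken as 6 separate arrays, 31 of the 73 were called, 19 higher and 12 lower, all of them among the 37. Over all 11364 features that fit called 1203 higher and 1264 lower.

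Of 7 measured genes of other Fc receptors, 1 rose and 0 fell, with a median of 0.064. Of all features 29.0% were called, and with 7 genes this count does not set the list apart. The gene that rose was Trim21, a cytosolic antibody receptor and ubiquitin ligase that interferon is known to induce, at 2.48 ± 0.060 (limma adjusted p = 1.43e-07). Fcgrt, the neonatal Fc receptor that recycles IgG, was at -0.094 ± 0.066 (limma adjusted p = 0.182). The IgE receptor genes Fcer1a (0.089 ± 0.080) and Fcer2a (0.043 ± 0.048) were not called.

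In a list drawn up as other activating receptors and adaptors, 12 genes were measured, of which 6 rose and 1, Treml1, fell (median 0.17). Not all of the 12 couple to an ITAM, Treml1 and Hcst among them. Clec4e, the mycobacterial glycolipid receptor Mincle, rose by 1.94 ± 0.10 (limma adjusted p = 3.36e-07), and Clec4d, its partner, by 0.99 ± 0.028 (limma adjusted p = 3.45e-06). Both signal through the γ chain of Fcer1g. Clec7a, the β-glucan receptor Dectin-1, rose by 0.74 ± 0.37 (limma adjusted p = 0.00310). Of the genes not called, Hcst was farthest from 0.

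Of 10 genes listed as inhibitory receptors, not all of which bear an ITIM, 3 rose and 2 fell (median 0.036). Lilrb4a had the largest rise, at 2.51 ± 0.16 (limma adjusted p = 3.04e-07), and a near-identical copy, Lilrb4b, could share its probe. Siglece, a receptor of sialic acids, was at 0.19 ± 0.088 (limma adjusted p = 0.0265), and Cd22 at 0.15 ± 0.079 (limma adjusted p = 0.0489), although probes of Cd22 were called in opposite directions (-0.21 and 0.52). Sirpa, which receives the "do not eat me" signal of CD47, fell to -0.55 ± 0.040 (limma adjusted p = 7.64e-05), and Clec4a2 was at -0.19 ± 0.13 (limma adjusted p = 0.0413), although neither of its probes was called. The calls of Siglece, Cd22 and Clec4a2 rest on the averaging of each set. In set 2 Siglece was at 0.57 with treated RNA in Cy5 and -0.40 with it in Cy3, Cd22 at 0.47 and -0.34, and Clec4a2 at -0.75 and 0.093. Taken as 6 separate arrays these genes were not called (limma adjusted p = 0.399, 0.364 and 0.288), which left 2 of the 10 called, Lilrb4a and Sirpa. Ceacam1 was at -0.091 ± 0.12 and not called.

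**Figure D3:**
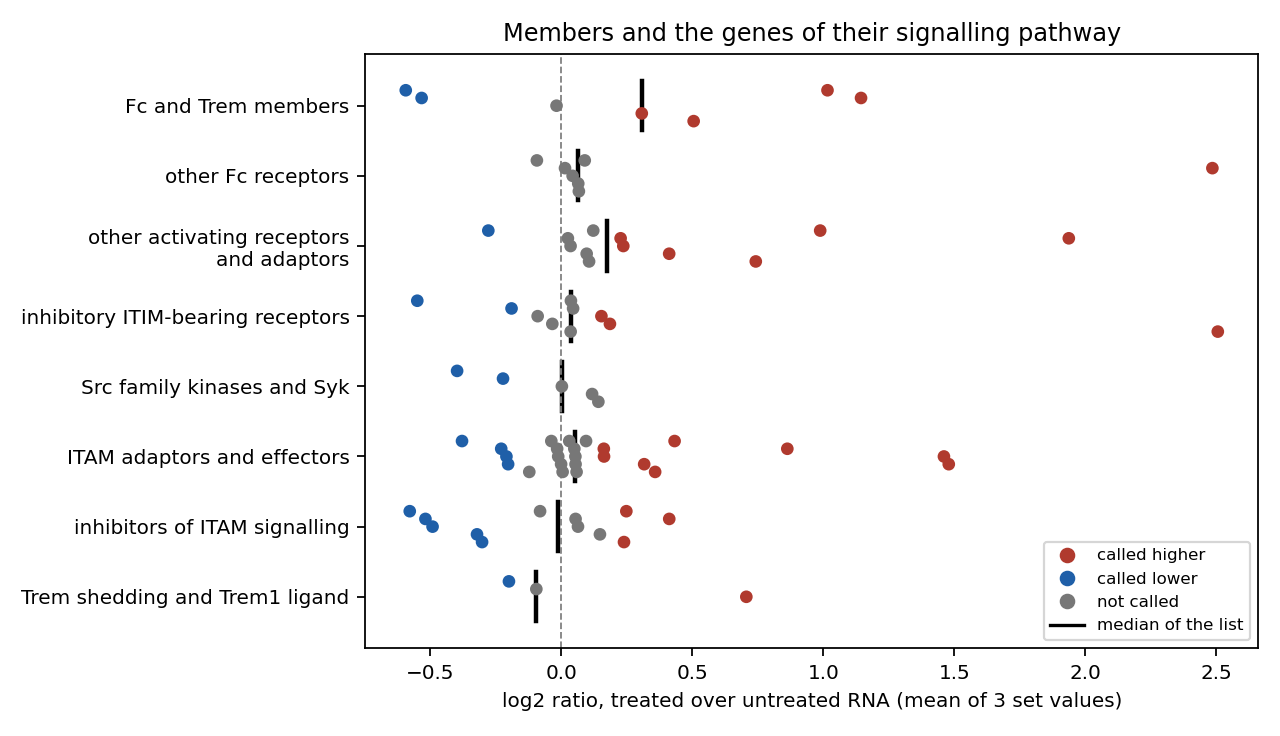
Mean log2 ratio of treated over untreated RNA (x axis, mean of 3 set values) of every measured gene of the member list and 7 pathway lists (y axis), coloured by call, with a bar at each list's median. Lilrb4a (2.51) and Trim21 (2.48) lie farthest right, and the inhibitors of ITAM signalling hold 5 genes called lower and 3 called higher.

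Kinases at and around the start of ITAM signalling were covered in part. Of 5 genes measured on all arrays 0 rose and 2, Csk and Btk, fell (median 0.0016). Neither of these is Syk or a Src family kinase. Yes1, of the Src family, was at 0.0016 ± 0.11 and not called (limma adjusted p = 0.986). Csk, which holds Src family kinases in check, fell to -0.40 ± 0.015 (limma adjusted p = 3.28e-04), and the kinase gene Btk to -0.22 ± 0.058 (limma adjusted p = 0.00810). Syk, the kinase that docks on phosphorylated ITAMs, was at 0.12 ± 0.16 (limma adjusted p = 0.223), and Tec was at 0.14 ± 0.27 (limma adjusted p = 0.321). Lyn had no probe listed under its symbol, and Fyn and Src were measured in 2 sets. When genes with values in only 2 sets were also fitted, Fyn rose by 0.30 ± 0.14 (limma adjusted p = 0.0194) and Src was at 0.12 ± 0.097 (limma adjusted p = 0.214), both SDs over 2 sets.

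Adaptors and effectors downstream of Syk rose in 8 and fell in 4 of 24 cases (median 0.051). Lcp2, which encodes the scaffold SLP-76, rose by 1.48 ± 0.089, its binding partner gene Fyb by 1.46 ± 0.19 and the PI3-kinase adaptor gene Pik3ap1 by 0.86 ± 0.11 (limma adjusted p = 9.55e-07, 6.74e-06 and 2.51e-05). All probes of these genes were called higher. The exchange factor gene Vav3 fell to -0.38 ± 0.13, Nfatc1, a transcription factor gene, to -0.23 ± 0.11 and Sos1 to -0.21 ± 0.039 (limma adjusted p = 0.00213, 0.0148 and 0.00866). Of the Nfatc1 probes 1 was not called (limma adjusted p = 0.0707). Sos1 was at -0.88 in set 2 with treated RNA in Cy5 and at 0.37 with it in Cy3, and taken as 6 separate arrays it was not called (limma adjusted p = 0.410), nor were Pik3r1 and Vav1, which left 9 of the 24 called. Plcg1 was at -0.12 ± 0.060 and not called (limma adjusted p = 0.0841).

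Inhibitors of ITAM signalling rose in 3 and fell in 5 of 12 cases (median -0.014). Inpp5d, the phosphatase that the inhibitory receptor of Fcgr2b recruits, fell to -0.58 ± 0.043, with its probes at -0.57 and -0.59 (limma adjusted p = 6.18e-05). Fcgr2b and Inpp5d, receptor and effector of the same inhibitory route, were thus called in opposite directions. The docking protein gene Dok1 fell to -0.52 ± 0.33 and the adaptor gene Sla to -0.49 ± 0.24 (limma adjusted p = 0.0102 and 0.00358). Dok2 rose by 0.41 ± 0.052, the phosphatase gene Ptpn11 by 0.25 ± 0.095 and the ubiquitin ligase gene Cbl by 0.24 ± 0.052 (limma adjusted p = 3.82e-04, 0.00859 and 0.00548), with 1 of 3 Ptpn11 probes not called (limma adjusted p = 0.0797). Pag1 was at 0.15 ± 0.26 and not called.

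Of the proteases known to shed Trem receptors from the cell surface, Adam17 rose by 0.71 ± 0.11 and Adam10 fell to -0.20 ± 0.013 (limma adjusted p = 6.22e-05 and 0.00911). Each had probes that were called in the same direction. Pglyrp1, a peptidoglycan-binding protein that is a known ligand of Trem1, was at -0.096 ± 0.044 and not called (limma adjusted p = 0.151).

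A ratio holds no level, so the labelled cell type could not be checked by the presence of its markers. Among 8 measured macrophage markers, Fcgr1 included, 4 rose and 1 fell (median 0.29). Among markers of other cells, 0 of 5 B cell, 0 of 5 NK cell, 0 of 6 mast cell and 0 of 4 dendritic cell markers were called by limma's adjusted p, against 29.0% of all features. At an unadjusted p below 0.05 there was 1, the NK cell gene Gzma (-0.14 ± 0.075), against 4366 of 11364 features. In the T cell list 1 of 5 was called (Cd4, 0.23 ± 0.12, not called on 6 separate arrays, limma adjusted p = 0.107), and in the neutrophil list 1 of 8 (Elane, 0.29 ± 0.13, with 1 of its probes not called). Among 5 osteoclast markers 3 rose, led by Ocstamp at 0.79 ± 0.091, while of 2 microglia markers P2ry12 fell to -0.68 ± 0.20. The part of these markers in the changes of Trem2 and the other members was not tested. In RNA of a whole culture, fewer cells that express a gene and less of its RNA per cell cannot be told apart.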

How the data were processed

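The deposited values are log2 ratios of the channels of an array, 1 per probe, with an array median of 0. Base 2 was inferred because the greatest value, 6.64, equals log2 of 100. Scanner, background correction, normalization and genome build are not given in the sources used here. Exact zeros were taken as not measured, which left 13415 probes with values on all 6 arrays and 14195 to 15027 measured probes per array. Symbols came from the platform's annotation and were checked by Entrez Gene ID against GRCm38.p6 (13694 matched, 44 did not, 0 changed). Probes of 1 gene were averaged, giving 11364 features, 9574 of them named.

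As deposited, arrays of opposite orientation correlated from -0.76 to -0.37 across probes, so arrays with treated RNA in Cy3 were turned in sign. Both arrays of a set were assumed to be a dye swap of the same RNA and counted as 1 replicate. Limma 3.58.1 (R 4.3.3; lmFit, eBayes, two-sided) compared the 3 set values with 0 over all features. Precision is limited by the number of arrays, and the table holds no intensities to filter dim probes. Tested on simulated data over 11364 features with 200 changed, the fit recovered 99.6% of 1.5-fold changes, with 5.61% false calls. The simulated set values were independent, with variances drawn from this same fit. These rates therefore check the code and do not measure recovery or false calls in the real arrays.

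The members and lists were chosen with earlier results of these data known. Named genes were all members. For each pathway list they were the 3 called genes that rose most, the 3 that fell most and the 1 uncalled gene farthest from 0. Fcer1a, Fcer2a, Syk and Yes1, and the genes beside members in RefSeq order, were named after their values were seen. For each marker list the gene farthest from 0 was taken, and for each called member the 2 nearest genes, not counting other members. The motif letters of ISRE and NF-κB were shortened after matches had been seen, which left the matches in the printed windows as they were and raised the shares over all promoters. Protein sequences were not used here.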

Additional observations from a re-analysis of the deposited data

Results flagged for a closer look

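Tyrobp had opposite signs in the orientations. Its mean was 0.11 with treated RNA in Cy5 and -0.15 with treated RNA in Cy3, and every array of the first kind was above 0 and every array of the second below it. The same held for its probe 3461, with means of 0.22 and -0.25, and not for its probe 13789. The test of this difference did not pass for the gene or for probe 3461 (limma adjusted p = 0.180 and 0.155). Of all features 23.1% had an unadjusted p below 0.05 in it, so a difference between orientations is not particular to Tyrobp. Groups of 3 arrays are too small for a check of single outlying arrays.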

How the results depend on the processing

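Members called higher numbered 4 and members called lower 2 under every setting tried for the averaged genes (median centring, scale and quantile normalization, leaving out each set, keeping features with values in 2 or more sets, exact zeros kept, robust variances, 6 arrays with a random or with no replicate block), with 3 exceptions. On the Cy5 arrays alone 2 were called higher, without Fcgr2b (0.68) and Trem1 (0.39). On the Cy3 arrays alone (0.62) and with the set as a fixed replicate block and a dye term (0.50, adjusted p = 0.0805), Trem1 was not called. Tyrobp was at 0.11 on the Cy5 arrays alone, uncalled as before. In single probes over 6 arrays with no replicate block, added after the data were seen, probe 15871 of Fcgr2b stayed at 0.43 but was not called. Over the whole table, 1586 features were called higher and 1708 lower. On the Cy5 arrays alone these were 931 and 894, and on the Cy3 arrays alone 1303 and 1079. Without each set in turn they were 1271 to 1479 and 1347 to 1464. The cause was not tested.

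On the turned scale, deviations of the arrays of 1 set correlated at -0.48, -0.51 and -0.020, below the level at which the numbers would be taken to pair the arrays. Between sets, the Cy5 array of set 2 correlated at 0.53 with the Cy3 array of set 1, and that of set 1 at 0.45 with the Cy3 array of set 2. Whether set numbers match between orientations was not settled, and no arrays were paired across numbers. With no replicate block 1203 features were called higher and 1264 lower, and with a random replicate block 1779 and 1919. The dye effect of Fcgr3 changed sign, from 0.0051 to -0.0025 after median centring and between -0.024 and 0.044 without each set, as did that of Trem1, between -0.26 and 0.053. No dye effect of a member was called under any of these.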
